A study of Arabidopsis thaliana with 4 samples.

Results

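Transcript levels of the brassinosteroid (BR) receptor gene *BRI1*, its homologs *BRL2* and *BRL3* and the signaling kinase gene *BSK5* were followed in auxin-treated *Arabidopsis thaliana* seedlings. The genes were taken by locus (AT4G39400, AT2G01950, AT3G13380 and AT5G59010), and for each 1 named probe set was found, 4 of the 22746 tested. Since 8245 probe sets had no name here, a further probe set of these loci could have been missed. The seedlings were of the wild type Col-0 (Columbia), grown in light to an age of 5 days. They were kept for 2 h either in plain water (mock) or in 10 µM IAA (indole-3-acetic acid), the auxin that plants make themselves, and each treatment had 2 arrays. Both groups were thus of 1 genotype and shared the immersion. Total RNA of whole seedlings was used, so fewer cells of a type and less RNA per cell cannot be told apart. The replicates are independent biological samples by the study's methods. Their number, 2 per group, limits the precision of every value.

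BRs are steroid hormones that promote cell expansion. They are bound outside the cell by BRI1, a receptor kinase with leucine-rich repeats in the plasma membrane, which acts with co-receptors of the SERK family. The activated receptor phosphorylates BSK proteins, membrane-bound cytoplasmic kinases, and the signal then passes through BSU1 phosphatases to inactivate the BIN2 kinase, which frees the transcription factors BZR1 and BES1 to regulate their target genes. BRL1 and BRL3 are close homologs of BRI1 that also bind BRs and are known from vascular tissue. BRL2, also called VASCULAR HIGHWAY 1 (VH1), is a further homolog with a known role in the vein pattern of leaves.

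The call and direction of each gene were at least in part fixed by how it was found. All 4 genes are on the study's lists of auxin-regulated transcripts, which were chosen on these same arrays. *BRL2*, *BRL3* and *BSK5* could be named through those lists alone, and *BRI1* also through lists of BR-regulated transcripts from other arrays. Of the 150 probe sets named through the auxin lists alone, 110 were increased and 40 decreased. None was left uncalled, so a call of *BRL2*, *BRL3* and *BSK5* was fixed once they were named. The changes below are therefore a description, and that all 4 passed the test is not independent evidence of a response. The call followed the rule of the study's methods, which asks of limma an adjusted p under 0.10 together with log odds (B) over 0. By that rule IAA increased 1.48% and decreased 0.374% of the tested probe sets. Among the 4 genes 3 were increased and 1 was decreased, and nothing is read from this count.

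The receptor gene *BRI1* was increased by IAA. Its RMA expression value was 479 and 523 in the mock arrays and 905 and 877 in the IAA arrays. Both IAA arrays were higher than both mock arrays, and the lower IAA array was 1.68 times the higher mock array. The group means were 501 ± 31.3 and 891 ± 20.0 (SD, n = 2 in each group), a 1.78-fold increase with a 95% interval of 1.51 to 2.09 (log2 change 0.83 ± 0.09 SE, limma adjusted p = 0.0154). The call was lost with the replicate number as a block in the fit (limma adjusted p = 0.147). It was also lost when mock replicate 1 or mock replicate 2 was left out, which leaves that group with 1 array. The log2 change was then 0.77 and 0.90.

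*BRL3*, the homolog that binds BRs, was also increased, from a signal near background. Its values were 30.3 and 27.0 in mock and 55.7 and 64.2 after IAA. Near background is taken here as at or below 37.6, the highest value of 27 control probe sets for *Bacillus* genes. Both mock arrays lay below that limit and both IAA arrays above it. The limit came from 1 control probe set, and the others read no higher than 19.2. Against 37.6, *BRL3* was at least 1.59-fold higher after IAA. The log2 change as measured was 1.06 ± 0.12 (SE, limma adjusted p = 0.0139). This call, too, was lost with the replicate block (limma adjusted p = 0.151), without mock replicate 1 and without mock replicate 2. It was also lost with 64 added to every value before the log, where the log2 change was 0.42.

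*BRL2* went the other way. Its values were 113 and 120 in mock and 53.4 and 58.4 after IAA. Both IAA arrays were below both mock arrays, and all arrays were above the background limit. The means of 116 ± 4.38 and 55.9 ± 3.56 (SD, n = 2 in each group) gave a 2.09-fold decrease with a 95% interval of 1.77 to 2.46 (log2 change -1.06 ± 0.10 SE, limma adjusted p = 0.0076). Among the 85 decreased probe sets it ranked 18 by size, and 0.101% of all tested probe sets had a log2 change as low or lower. The share with a change as high or higher was 1.48% for *BRI1*, 0.901% for *BRL3* as measured and 0.339% for *BSK5*. Such ranks are in part fixed by the lists through which the genes were found. *BRL2* stayed called in all 14 other settings, of which those on the call rule reuse the main fit and could not lose the call. In the settings with all arrays its limma adjusted p was between 0.00444 and 0.0888.

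**Figure D1:**
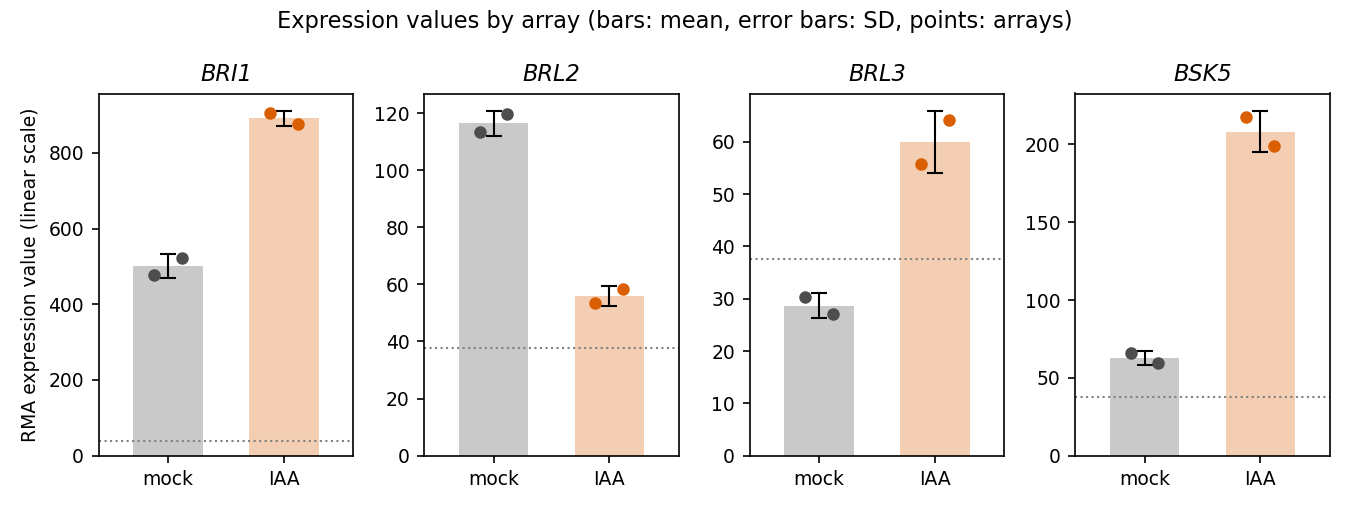
RMA expression values (linear scale, starting at 0, a separate axis for each gene) of *BRI1*, *BRL2*, *BRL3* and *BSK5* in mock and IAA arrays. Points are arrays, bars are means, error bars are SD (n = 2) and the dotted line is the background limit of 37.6. *BRI1*, *BRL3* and *BSK5* were higher in both IAA arrays and *BRL2* was lower, and the mock arrays of *BRL3* lay below the dotted line.

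The fourth receptor homolog, *BRL1* (AT1G55610), was named by the array's annotation and so independently of these arrays. Its values were 12.9 and 14.2 in mock and 13.4 and 16.1 after IAA. All of them were near background and the groups overlapped, so its log2 change of 0.12 gives no direction. No rise above the background limit was seen, and a fall or a smaller rise of *BRL1* was not detectable with this probe set.

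The receptor genes were then compared with each other, by the log2 difference between a pair of probe sets within each array. Such differences compare changes, not levels, since probe sets differ in brightness. The difference of *BRI1* from *BRL2* was 2.08 and 2.13 in the mock arrays and 4.08 and 3.91 in the IAA arrays. The groups lay 1.78 apart at their closest, and the change of *BRI1* exceeded that of *BRL2* by 1.89 on the log2 scale. For *BRL3* against *BRL2* the difference was -1.90 and -2.14 in mock and 0.06 and 0.14 after IAA, so that the change of *BRL3* as measured exceeded that of *BRL2* by 2.12. With the mock level of *BRL3* set to the background limit, the gap was at least 1.73. In both pairs the exact permutation test over arrays gave p = 0.333 (two-sided), the smallest value that this test allows with 2 arrays against 2, so the test cannot reach 0.05. The opposite directions of *BRI1* and *BRL3* against *BRL2* held in all 9 other settings in which the pairs were computed. Among these, centring the arrays on the median and the replicate block cannot change such a gap. The gap ranged from 1.35 to 1.98 for *BRI1* and from 1.01 to 2.24, as measured, for *BRL3*.

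The sizes of change of *BRI1* and *BRL3* were not distinguished. Their difference was 3.98 and 4.27 in mock and 4.02 and 3.77 after IAA, with overlapping groups and a change of -0.23 (exact permutation test, two-sided, p = 0.667). That value turned to 0.34 with 64 added before the log and to 0.049 with 16 added. This does not show that the genes responded alike, and the mock signal of *BRL3* was near background.

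*BSK5*, of the kinase family that acts just below the receptor, had the largest change of the 4 genes as measured, although that of *BRL3* is known only as a lower bound. Its values were 65.7 and 59.6 in mock and 218 and 199 after IAA. The lower IAA array was 3.02 times the higher mock array, and all arrays lay above the background limit. The means of 62.6 ± 4.34 and 208 ± 13.4 (SD, n = 2 in each group) gave a 3.32-fold increase with a 95% interval of 2.79 to 3.97 (log2 change 1.73 ± 0.10 SE, limma adjusted p = 0.00176). It ranked 74 by size among the 337 increased probe sets, where *BRI1* ranked 255. Its call was kept in all 14 other settings, of which those on the call rule could not lose it. The change of *BSK5* exceeded that of *BRI1* by 0.90 on the log2 scale (exact permutation test, two-sided, p = 0.333, the smallest possible), and by 0.34 with 64 added before the log.

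**Figure D2:**
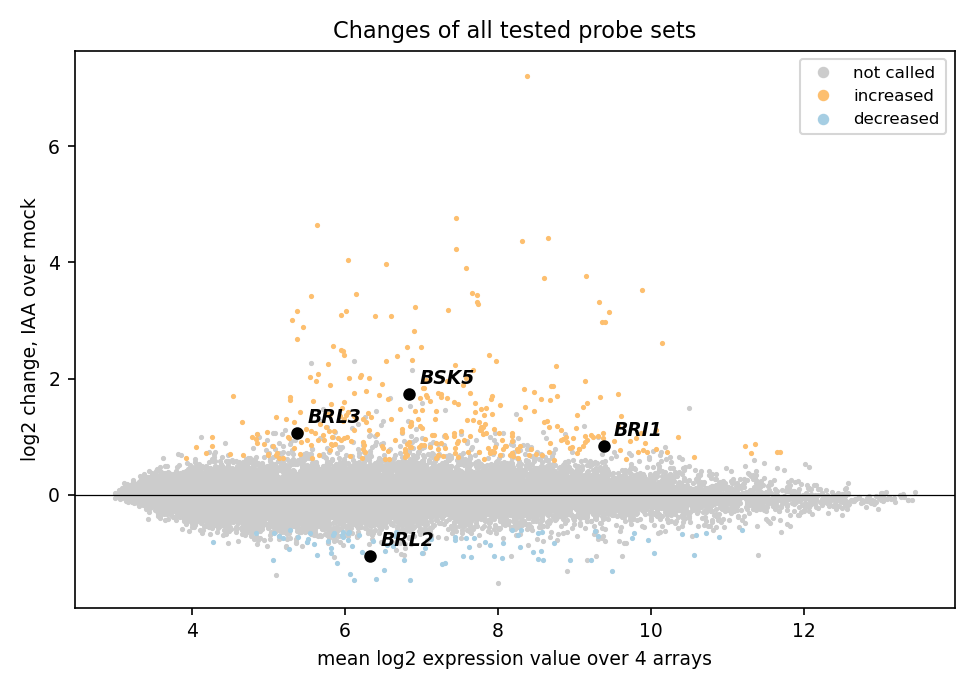
Log2 change (IAA over mock) of each of the 22746 tested probe sets against its mean log2 expression value over 4 arrays, colored by call. *BSK5* (1.73), *BRL3* (1.06) and *BRI1* (0.83) lie among the increased probe sets and *BRL2* (-1.06) among the decreased ones.

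The spread between replicate arrays was small beside these changes. For the 4 genes the arrays of a group lay between 0.05 and 0.20 apart on the log2 scale, against a median over all probe sets of 0.10 in mock and 0.13 in IAA. The widest gap was that of *BRL3* after IAA. Groups that did not overlap were common on these arrays, at 53.5% of all probe sets (24.5% with IAA higher and 29% with IAA lower), so that lack of overlap alone says little about a gene.

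The other genes of the pathway were examined by role. Of 36 genes on the 7 BR signaling lists, 9 had a named probe set, and without the 4 genes described above 5 of 32 did. Of these 5 genes 1 was increased and 0 were decreased, and their median log2 change was 0.32 against -0.02 over all probe sets. Only *BRL1* among them was named by the array's annotation. *BZR1*, *BEH1* and *BEH2* were named through the lists of BR-regulated transcripts, and 62 of the 335 probe sets so named were increased. The median over all probe sets is thus not a like comparison, and no rise of the pathway is read from it. The increased gene was *BSK6*, a second member of the BSK family, named through the auxin lists as well. Its values were 81.6 and 86.3 in mock and 190 and 191 after IAA, a 2.27-fold increase (limma adjusted p = 0.004). Both measured BSK genes of 13 listed thus rose, but both were found through lists chosen on these arrays. Of the 8245 probe sets without a name, 1 was increased and 0 were decreased. At most 1 probe set of other BSK genes among them was thus increased, and no rise of the family is read.

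Farther down the pathway no measured gene was called. *BZR1*, which encodes the BR-activated transcription factor, had values of 553 and 562 in mock and 659 and 739 after IAA. Its groups did not overlap, but its log2 change of 0.32 (95% interval 0.08 to 0.57) had a limma adjusted p of 0.157. The name of its probe set (suffix _s_at) means that several similar genes may be read by it. The related factor genes *BEH1* (0.17) and *BEH2* (0.36) had limma adjusted p of 0.491 and 0.248. No gene of the lists of SERK co-receptors, BSU1 phosphatases and BIN2 kinases, nor the receptor inhibitor gene *BKI1*, had a named probe set, so these steps were not analysed here. The 8245 probe sets without a name, which may hold theirs, had 1 increase and 0 decreases. Among receptor kinases of peptide signals related to BRI1 in sequence, *PSY1R* (0.00) and *EMS1* (-0.15), both named by the array's annotation, were not called.

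Genes that set the BR level were read beside the receptors. Of 10 BR synthesis genes 5 were measured, and 0 were called by limma, while 3 had an unadjusted p below 0.05 and a lower mean after IAA, as did 10.6% of all tested probe sets. The P450 gene *ROT3* was the farthest from 0. Its values were 141 and 135 in mock and 96.2 and 93.6 after IAA (log2 change -0.54 ± 0.09 SE), and it missed the call on B alone (limma adjusted p = 0.044). The median over the 5 genes was -0.33. Of the 2 BR inactivation genes, *BAS1*, which encodes a P450 that hydroxylates BRs, rose 4.71-fold, from 77.9 and 82.4 to 364 and 392. *CYP72C1* had 121 and 107 in mock and 164 and 194 after IAA, and it also missed the call on B alone (limma adjusted p = 0.0626). All measured genes of BR synthesis and inactivation were named through the lists of BR-regulated transcripts. The share over all probe sets is thus not a like comparison. No fall of the BR synthesis genes as a group is read from it or from their median. *BAS1* is also on the auxin lists, and the others named here are not.

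**Figure D3:**
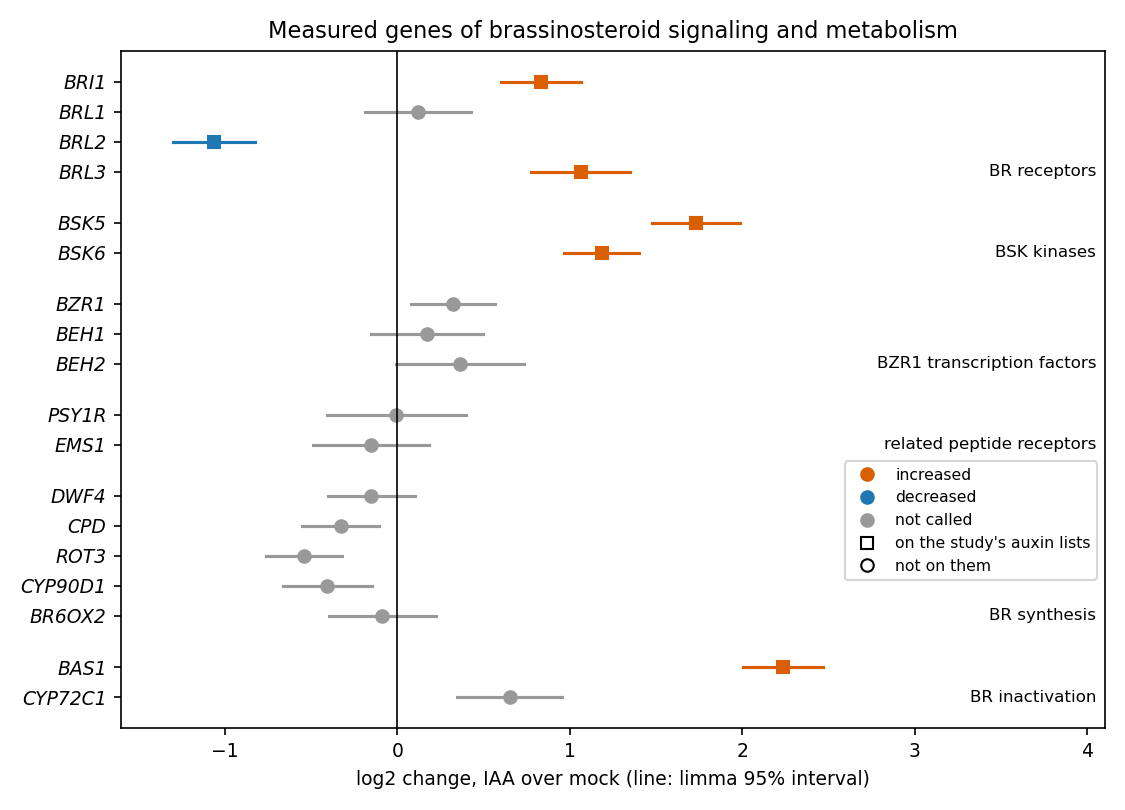
Log2 change (IAA over mock) of each measured gene of BR signaling and metabolism, grouped by role, with limma's 95% interval as a line. Orange marks increased, blue decreased and grey genes that were not called, and squares mark genes on the study's lists of auxin-regulated transcripts. *BRL2* is the only gene of the plot on the decreased side that was called, and every called gene is a square.

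Marker genes of tissues and handling were read in the same arrays. Those that were called are on the auxin lists, chosen on these arrays, so that their calls are not independent evidence. This holds for all 5 auxin-response genes used to check the treatment, which rose with log2 changes of 3.22 to 4.36 in *IAA1*, *IAA5* and *IAA19*, and at least 108-fold in *GH3.3* and 24.2-fold in *IAA29*, whose mock means were near background. Of 10 vascular genes 2 had a named probe set, *TMO5* and *ACL5*, both through the auxin lists alone. *TMO5* was at least 2.92-fold higher after IAA and *ACL5* had a log2 change of 1.15. Their summed value, mostly from *ACL5*, was 365 and 403 in mock and 912 and 852 after IAA. Of 6 root genes 4 were measured. *CASP5* and *TIP2;3*, both on the auxin lists, fell by 0.99 and 1.13 on the log2 scale. *PYK10* (-0.09) and *EXPA7* (-0.40), named by the array's annotation and not on those lists, were not called. *EXPA7* missed the call on B alone (limma adjusted p = 0.0922, 95% interval of the log2 change -0.63 to -0.18). The summed root value, mostly from *PYK10*, was 3337 and 3939 in mock and 3215 and 2785 after IAA. The 4 measured touch and handling genes of 5 listed, all on the auxin lists, rose (*TCH2*, *TCH4*, *WRKY33* and *ERF6*). Their sums were 3096 and 2869 in mock and 4989 and 5501 after IAA. Most of each sum came from *TCH4* (2638 and 2350 in mock, 3959 and 4388 after IAA). *TCH2* and *TCH4* were named through the lists of BR-regulated transcripts, and *WRKY33* and *ERF6* through the auxin lists alone. The 2 measured leaf genes of 6, not on the auxin lists, were not called (-0.20 and -0.01). The part of tissue makeup or handling in the changes of the receptor genes was not tested.

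Finally, the named genes nearest in pattern to each of the 4 genes were listed, by the distance between centred log2 values over 4 arrays among 13997 candidates. For *BRI1* these were *SYP121*, which encodes a membrane fusion protein, AT2G28400 and the kinase gene *WNK1*, at distances of 0.02 to 0.04. In all, 106 candidates lay within 0.2 of *BRI1*. For *BRL2* they were the P450 gene *CYP718*, the extensin gene *EXT10* and AT5G04790 (0.07 to 0.12). The name of the *EXT10* probe set (suffix _x_at) means that it may also read other similar genes. For *BRL3* they were AT4G35320, *CSLC04*, which encodes an enzyme of xyloglucan backbone synthesis, and AT2G21220 (0.04 to 0.07). For *BSK5* they were *LBD16*, a regulator of lateral root formation, AT4G17350 and the expansin gene *EXPA11* (0.13 to 0.14). All 12 are on the auxin lists, and the likeness rests on 4 arrays in 2 groups.

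**Figure D4:**
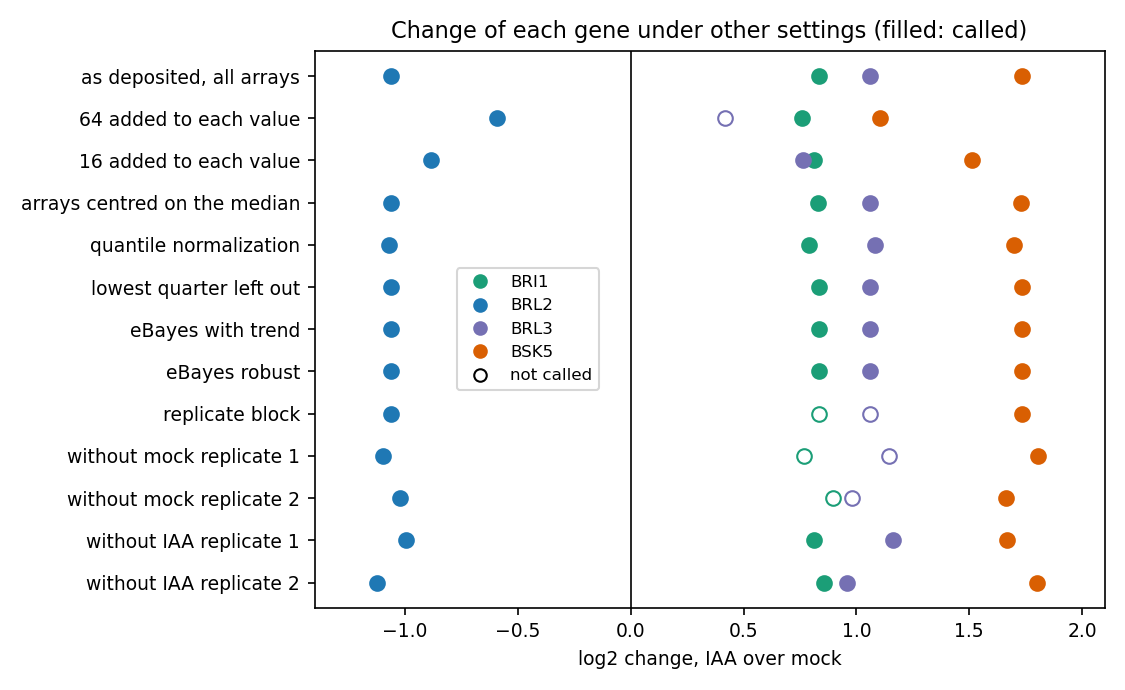
Log2 change (IAA over mock) of the 4 genes under the deposited values and 12 other settings, with filled points where the gene was called and open points where it was not. *BSK5* and *BRL2* were called throughout, *BRI1* was not called in 3 settings and *BRL3* in 4, and no gene crossed 0.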

How the data were processed

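Whole-seedling RNA was read on 4 Affymetrix ATH1 arrays, which were grouped by the sample descriptions. The deposited intensity values are linear, with 1 for each probe set, and were made by the authors with rma (Bioconductor affy), which subtracts background, equalizes array quantiles and summarizes probes. Its version and the set of arrays normalized together are not given in the sources used here. The linear scale was judged from the range of the values. Such normalization hides a change shared by most transcripts.

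Log2 values were used with no pseudocount added. The limma package (3.58.1, R 4.3.3) was run, through lmFit and then eBayes, on all 22746 probe sets that are not controls, with treatment as the only term and Benjamini-Hochberg adjustment over all of them. Calls needed an adjusted p under 0.10 together with log odds (B) over 0, as the study's methods state. SD are of linear values over 2 arrays. SE and 95% intervals are from limma on the log2 scale, with 3.66 prior and 5.66 total degrees of freedom. Arrays were simulated for this comparison (22746 probe sets, 200 changed). The share of changes called was 22.0% at 1.5-fold, 87.2% at 2-fold and 99.4% at 4-fold, with 9.31% false calls. The simulated noise was normal and independent, with variances drawn from limma's own fitted prior. These shares thus follow in part from the model and are not measured error rates of these arrays.

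None of the 4 genes was named by the platform annotation given here. For *BRI1* the name came from lists of BR-regulated transcripts in the study. For *BRL2*, *BRL3* and *BSK5* it came from the lists of auxin-regulated transcripts alone. Only loci were read from these lists, not values. All 4 genes and the gene lists were chosen with earlier results of these data known. Where a locus had several probe sets, the brightest on average was used. A further count over all leucine-rich repeat receptor kinases was not run, since the gene table used here holds no descriptions. Genes nearest in pattern were the 3 with the smallest Euclidean distance between log2 values centred on each probe set's mean. No protein, promoter or genome sequence was used here. Alternatives covered the pseudocount, normalization, dim probe sets, the variance model, the replicate block, the call rule and each array left out.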

Additional observations from a re-analysis of the deposited data

How the results depend on the processing

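The direction of *BRI1*, *BRL2*, *BRL3* and *BSK5* was kept in every setting run. Settings on the variance model, the block, the call rule or dim probe sets cannot change a log2 change, so they do not test the direction. The call was kept in 14 of 14 settings for *BRL2* and *BSK5*, in 11 for *BRI1* and in 10 for *BRL3*. These counts include the settings on the call rule, which reuse the main fit and could not lose a call of these genes. With 64 added to each value, the log2 change of *BRL3* was 0.42 and not called, and the difference of *BRI1* from *BRL3* turned from -0.23 to 0.34 (0.049 with 16 added). Without 1 array each, the log2 change ranged from 0.77 to 0.90 for *BRI1* and from 0.96 to 1.16 for *BRL3*, increased probe sets ranged from 158 to 397 and decreased ones from 20 to 162. With no rule on B there were 880 increases and 513 decreases at an adjusted p below 0.10, and 155 decreases at 0.05. The labels do not say whether arrays of the same replicate number were processed together. The correlation of their deviations was -0.19, which shows no likeness but cannot exclude a pairing. With the number as a replicate block, *BRI1* (0.83, limma adjusted p = 0.147) and *BRL3* (1.06, 0.151) lost the call and the counts were 145 and 10. With crossed numbers, a setting added after the data were seen, they were 299 and 86. Depth is not defined for arrays. Signal near background limits *BRL1* and the mock value of *BRL3*.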
